A study of Mus musculus with 4 samples.

Results

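The genes described here were 10 chemokine ligands and receptors of the CXC and CX3C families, picked by symbol from the 31053 features of the deposited matrices. They were 7 ligands (Cxcl1, Cxcl2, Cxcl9, Cxcl10, Cxcl12, Cxcl16 and Cx3cl1) and 3 receptors (Cxcr2, Cxcr4 and Ackr3), and all 10 had UMIs in every library. A UMI (unique molecular identifier) tags 1 captured mRNA molecule in the 10x Genomics droplet assay, and the level of a gene is given as its summed UMIs in a cell class of a library, scaled by all UMIs of that class to counts-per-million (CPM).

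Brain cells came from the ipsilateral hemisphere of male mice, 8 weeks old by the labels and of the C57/BL6 strain by the methods, after sham surgery or 1, 3 and 7 days after transient middle cerebral artery occlusion (tMCAO), a stroke model in which a filament blocks the artery and is withdrawn. There were 4 libraries, 1 per group, with 11744 (sham), 17780 (day 1), 11983 (day 3) and 17922 (day 7) deposited cells and 69392755 to 104023002 UMIs each. The hemispheres were perfused and digested with papain at warm temperature, the number of mice per library was not given in the sources used here, and no transgene or drug was part of any group. The sources used here disagree on the day on which the sham brain was taken, and every ratio below is over this library. With 1 library per group no test between groups was possible, so every difference below compares these libraries, and the exact 95% intervals in brackets cover counting error only.

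CXC chemokines are small secreted proteins that guide leukocytes through G protein-coupled receptors. CXCL1 and CXCL2 act on CXCR2 and draw neutrophils, CXCL9 and CXCL10 are interferon-inducible and act on CXCR3 of T and NK cells, and CXCL12 holds or attracts CXCR4-bearing cells and is removed by the scavenging receptor ACKR3. CXCL16 and CX3CL1 (fractalkine) are made as membrane-bound proteins that can be shed, with CXCR6 and the microglial receptor CX3CR1 as their partners.

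The inflammatory ligands lie in pairs. By the GENCODE vM21 annotation of GRCm38, Cxcl1 (ENSMUSG00000029380, chr5:90891241-90893115, plus strand) and Cxcl2 (chr5:90903871-90905938, plus strand) are 10755 bases apart, and Cxcl9 (chr5:92321347-92328079) and Cxcl10 (chr5:92346638-92348889), both on the minus strand, are 18558 bases apart. Cxcl10 overlaps Art3 and Cxcl16 (chr11:70453983-70459984, minus strand) overlaps Zmynd15, each on the other strand. The other ligands were Cxcl12 (chr6:117168535-117181367, plus) and Cx3cl1 (chr8:94772009-94782427, plus), and the receptors were Cxcr2 (chr1:74153989-74161246, plus), Cxcr4 (chr1:128588199-128592293, minus) and Ackr3 (chr1:90203980-90216751, plus).

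The 250 bases upstream of the start of these 4 ligand genes are shown because Cxcl1 and Cxcl2 were both higher in endothelial-like cells at day 1, and Cxcl9 and Cxcl10, the interferon-inducible pair, were not. They are RefSeq sequences of GRCm38.p6 up to the RefSeq start, which for Cxcl1 and Cxcl2 lies downstream of the GENCODE start given above, so that the end of both stretches is inside the GENCODE gene. They are written 5' to 3' on the strand of the gene, with capitals for matches to the NF-kB motif, or to GAAANNGAA, the core of the interferon-stimulated response element (ISRE).
Cxcl1, chr5:90890995-90891244, plus strand: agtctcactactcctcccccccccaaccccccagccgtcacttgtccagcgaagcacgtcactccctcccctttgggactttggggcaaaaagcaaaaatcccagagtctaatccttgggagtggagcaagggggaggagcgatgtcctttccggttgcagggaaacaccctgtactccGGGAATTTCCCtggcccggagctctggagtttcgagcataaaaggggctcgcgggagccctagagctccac
Cxcl2, chr5:90903649-90903898, plus strand: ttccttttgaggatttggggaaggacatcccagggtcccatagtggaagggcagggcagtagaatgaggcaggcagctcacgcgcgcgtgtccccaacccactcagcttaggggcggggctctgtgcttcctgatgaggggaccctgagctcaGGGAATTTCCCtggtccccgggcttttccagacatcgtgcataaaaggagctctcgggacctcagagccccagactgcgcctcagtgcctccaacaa
Cxcl9, chr5:92328080-92328329, minus strand: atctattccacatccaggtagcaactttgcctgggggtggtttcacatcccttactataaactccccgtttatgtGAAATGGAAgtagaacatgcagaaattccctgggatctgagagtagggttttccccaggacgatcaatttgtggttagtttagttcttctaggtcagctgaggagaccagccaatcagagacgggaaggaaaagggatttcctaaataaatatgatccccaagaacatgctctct
Cxcl10, chr5:92348890-92349139, minus strand: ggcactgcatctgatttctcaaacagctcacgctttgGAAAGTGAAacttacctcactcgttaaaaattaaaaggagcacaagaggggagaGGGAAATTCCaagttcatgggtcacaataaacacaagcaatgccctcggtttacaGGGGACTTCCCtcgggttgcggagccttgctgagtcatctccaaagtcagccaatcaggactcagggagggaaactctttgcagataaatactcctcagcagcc

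Searched on both strands, the NF-kB motif first matched 71 bases upstream of the RefSeq start of Cxcl1 and 97 bases upstream of that of Cxcl2, and the matched letters, GGGAATTTCCC, were the same. Cxcl10 held NF-kB matches from 159 and 104 bases upstream and the ISRE core from 213 bases upstream, and Cxcl9 held the ISRE core from 175 bases upstream. Of 32851 RefSeq promoters of 300 bases (the same 250 and 50 bases of the transcript), 8.46% held the NF-kB motif and 8.56% the ISRE core. TATAAA (13.6% of promoters) was found in Cxcl9, Cxcr4, Ackr3 and Cx3cl1, and ACGTG (19.6%), the core of the hypoxia response element, in Cxcl1. None of the letters searched for was found in Cxcl12 or Cxcr2, and TTCNNNGAA (8.30%), the interferon gamma activated site, was found in no member. A match is a run of letters and no evidence of binding, and Cxcl16 was not among the promoters matched (9 of 10 members).

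Cells were kept when they had 200 to 3000 genes and no more than 10% of UMIs from mitochondrial genes, which left 44360, with medians of 2507.5 to 3731.5 UMIs per library, and pairs of libraries shared 33 to 88 cell barcodes. They fell into 34 clusters, and classes were named "-like" from marker genes. The classes used most below were endothelial-like (21633 cells), vascular smooth muscle-like (VSMC-like, 4296), pericyte-like (2111), microglia-like (1652), neuron-like (979), border macrophage-like (364, led by Pf4, Cd74 and Mrc1), fibroblast-like (247), T or NK-like (222) and neutrophil-like (161) cells. 4992 cells in 4 clusters stayed unnamed. Markers of monocytes and dendritic cells were also used, but no cluster took either name. The part of such cells in the border macrophage-like class was not tested. The class names were rebuilt here and may differ from the authors' own. Of the 10 members, 8 were among the variable genes first selected. All members were taken out, so that the 2000 variable genes used for clustering held none of them.

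The ligands split by class of origin. Over the 4 libraries, endothelial-like cells held 83.8% of the Cxcl12 UMIs, 68.9% of those of Cx3cl1 and 60.4% of those of Cxcl1. Myeloid cells held much of the others: 38.3% of the Cxcl2 UMIs were in border macrophage-like, 21.6% in neutrophil-like and 19.7% in microglia-like cells, Cxcl10 and Cxcl16 had 54.1% and 46.2% in microglia-like cells, and 92.2% of the few Cxcl9 UMIs were in border macrophage-like cells, all of them in sham and day 7 cells, whereas at day 3 endothelial-like cells held 15 of 16. The receptors overlapped with their ligands in part. Neutrophil-like cells held 85.9% of the Cxcr2 UMIs, VSMC-like cells 43.4% and endothelial-like cells 33.2% of those of Ackr3, and Cxcr4 was spread over border macrophage-like (17.4%), endothelial-like (16%), neutrophil-like (13%), ependymal-like (12.4%) and T or NK-like (12.2%) cells. The Cxcl10 share of microglia-like cells was 47.8%, 74.8%, 26.6% and 27.6% in sham and at days 1, 3 and 7, and that of endothelial-like cells 43.6%, 11.0%, 50.5% and 45.8%, but 5 of 4831 day 3 and 3 of 7256 day 7 endothelial-like cells held 50% or more of their Cxcl10 UMIs. These shares move with the number of cells of each class in a library and with the cell filter.

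**Figure D1:**
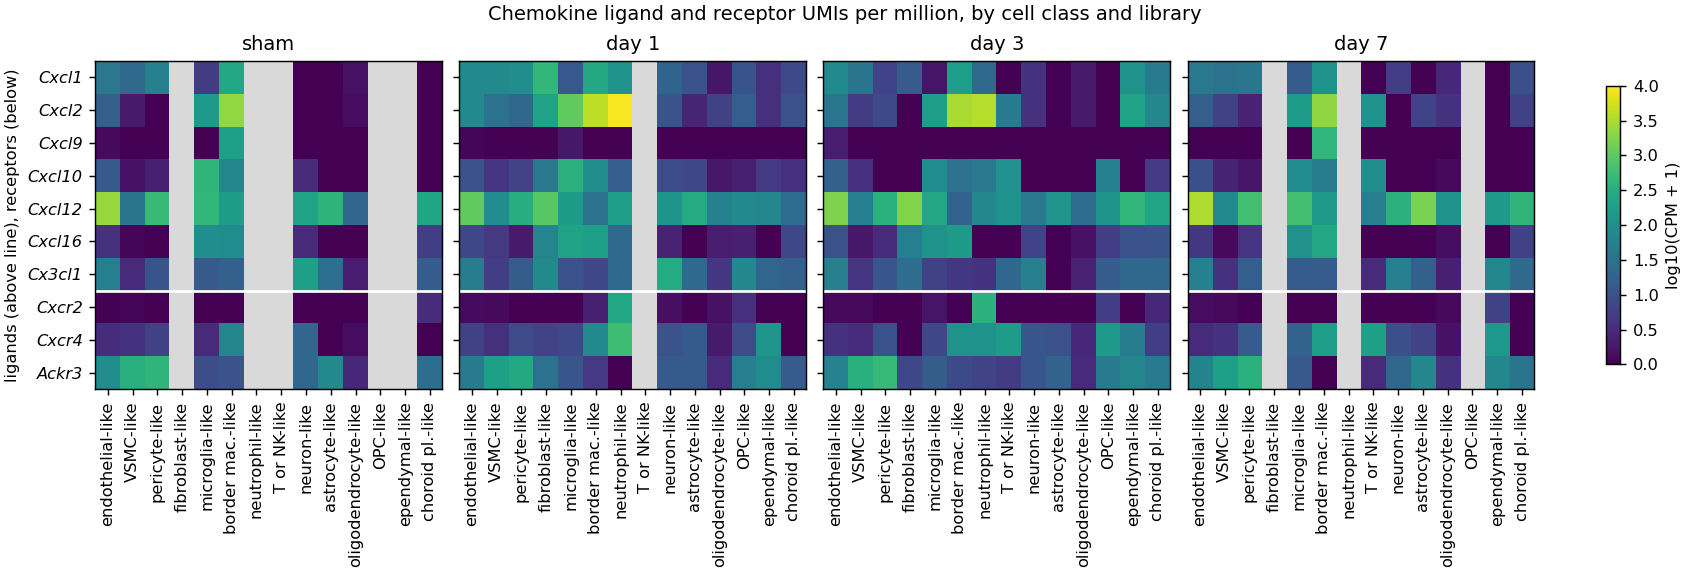
Level of the 10 members, as log10(CPM + 1), in 14 cell classes (columns) of the 4 libraries (panels), with ligands above and receptors below the white line and grey where a class had under 50 cells. The Cxcl12 row is bright in endothelial-like cells of all 4 libraries, Cxcl2 in border macrophage-like and neutrophil-like cells, and Cxcr2 stands out only in the neutrophil-like columns.

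Cxcl12, the homeostatic ligand of CXCR4, was lower in endothelial-like cells at day 1 and higher at day 7 than in sham. Its level was 2445 CPM in sham, 1069 at day 1, 1698 at day 3 and 3232 at day 7. The day over sham ratio was 0.437 [0.429 to 0.446] at day 1, 0.695 [0.683 to 0.706] at day 3 and 1.32 [1.31 to 1.34] at day 7. All cells of the library gave the same order, with 712, 263, 533 and 1104 CPM in sham and at days 1, 3 and 7, cells outside the filter included. The share of endothelial-like cells with a Cxcl12 UMI, after thinning each cell to 1000 UMIs, was 68.8% in sham, 49.7% at day 1, 59.0% at day 3 and 73.4% at day 7 (81.7%, 64.2%, 71.5% and 82.4% unthinned, with 200, 836, 257 and 591 shallower cells left out). In oligodendrocyte-like cells, which should lack the gene, the thinned shares were 1.84%, 3.97%, 2.15% and 7.92%. Median depths in the same order were 3472, 2102.5, 2479 and 2353 UMIs in endothelial-like and 7882.5, 4920, 6692 and 5878.5 UMIs in oligodendrocyte-like cells.

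The day 1 difference ran through all 10 endothelial-like clusters. Cxcl12 was lower than in sham in 10 of 10 clusters at day 1 and in 8 of 10 at day 3, and higher in 9 of 10 at day 7. Its level differed far more between the clusters than between libraries. Cluster 2, which has Cxcl12 among its leading genes beside the capillary marker Spock2, had 5222, 2772, 4101 and 6747 CPM in sham and at days 1, 3 and 7. Cluster 6, led by the arterial markers Gkn3 and Bmx, had 724 CPM pooled over the libraries, and the 2 clusters with Ackr1, Lrg1 and Selp among their leading genes, which mark venous or activated endothelium, had 237 (cluster 10) and 367 CPM (cluster 13). The clustering did not use Cxcl12 itself, but the clusters share the same libraries, so the order of the clusters is a description.

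**Figure D2:**
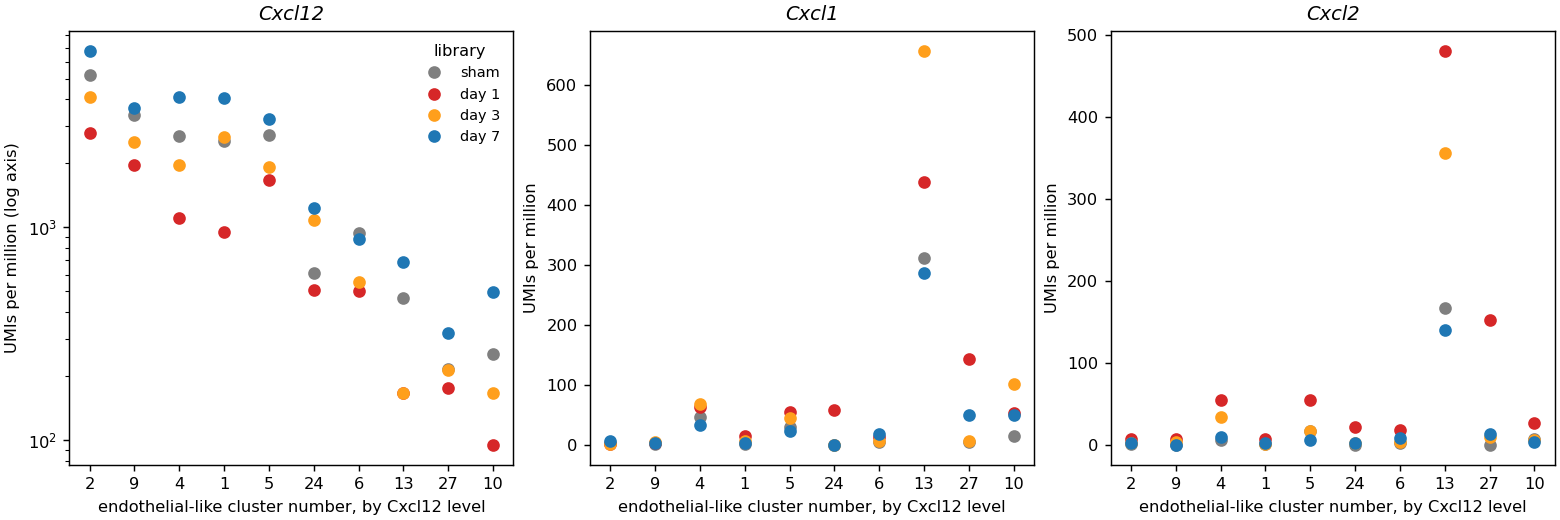
Cxcl12, Cxcl1 and Cxcl2 in CPM (y, log axis for Cxcl12) in each of the 10 endothelial-like clusters (x, ordered by Cxcl12), with 1 point per library. The day 1 point lies below the sham point for Cxcl12 in all 10 clusters, and cluster 13 holds the high Cxcl1 and Cxcl2 values, among the clusters with low Cxcl12.

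Around the endothelium, the course of Cxcl12 differed by class and by cell filter. Pericyte-like cells had 512 CPM in sham, 313 at day 1, 353 at day 3 and 622 at day 7, with ratios of 0.611 [0.527 to 0.707], 0.689 [0.603 to 0.789] and 1.22 [1.08 to 1.37]. At a limit of 6000 genes per cell they had 923, 308, 398 and 701 CPM, so that day 7 turned from above to below sham (ratio 0.760 [0.699 to 0.826]) while days 1 and 3 stayed below it. Fibroblast-like cells, with 32, 134, 50 and 31 cells, had 656, 911, 1716 and 1588 CPM, and with up to 6000 genes they had 737, 705, 1697 and 1344 CPM, so that day 1 was no longer above sham. The sham and day 7 cells of this class are few. In VSMC-like cells the level was 33.3 CPM in sham, 84.5 at day 1, 51.5 at day 3 and 80.4 at day 7, with ratios of 2.54 [2.10 to 3.08], 1.55 [1.27 to 1.89] and 2.41 [2.04 to 2.87].

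The low VSMC-like values moved with the filter, and in part with endothelial markers. Both were above sham at days 1, 3 and 7, but from day 3 to day 7 the markers fell and Cxcl12 rose. The summed level of 6 endothelial markers in VSMC-like cells was 222 CPM in sham, 1657 at day 1, 506 at day 3 and 447 at day 7. Per 100 UMIs of these markers, VSMC-like cells held 15.0, 5.10, 10.2 and 18.0 Cxcl12 UMIs, and endothelial-like cells 9.35, 4.29, 5.56 and 14.1, so that on this scale both classes were lowest at day 1 and highest at day 7. With up to 6000 genes per cell, Cxcl12 in VSMC-like cells was lower at days 1 and 3 than in sham (101 and 109 against 148 CPM) and higher at day 7 (236 CPM), and without called doublets the difference on the log2 scale was -0.048. Oligodendrocyte-like cells held 10.7, 8.02, 5.68 and 17.1 and microglia-like cells 14.4, 7.22, 8.73 and 18.0. At day 1 both were above endothelial-like and VSMC-like cells but below pericyte-like cells (8.18). At day 7 pericyte-like (20.4), border macrophage-like (20.5), astrocyte-like (22.4) and oligodendrocyte progenitor-like cells (28.2) were above the VSMC-like value. Fibroblast-like cells held more in each library than any of these, with 31.5, 50.5, 61.8 and 50.8. The part of endothelial RNA in the levels of the other classes was not tested.

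**Figure D3:**
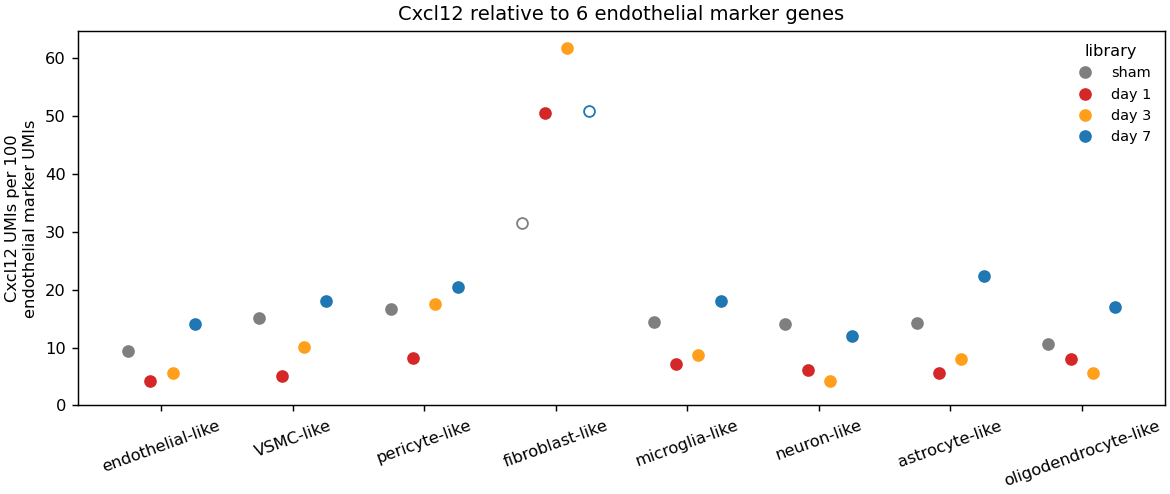
Cxcl12 UMIs per 100 UMIs of 6 endothelial marker genes (y) in 8 cell classes (x), 1 point per library, open where a class had under 50 cells. Fibroblast-like cells lie between 31.5 and 61.8 in the 4 libraries, above every other class drawn.

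Ackr3, the scavenging receptor for CXCL12, was highest in mural cells in these libraries and was lower in both mural and endothelial-like cells at day 1. VSMC-like cells had 322 CPM in sham, 179 at day 1, 341 at day 3 and 183 at day 7, with ratios of 0.557 [0.507 to 0.610], 1.06 [0.987 to 1.13] and 0.567 [0.528 to 0.608]. Sham and day 3 were thus alike and days 1 and 7 were lower, in 3 of 3 VSMC-like clusters each. Cluster 12, with Ackr3, Rgs5 and Notch3 among its leading genes, had 799.7, 535, 969 and 574 CPM, against 154, 100.1, 167 and 83.5 in cluster 8 and 231, 60.9, 143 and 66.9 in cluster 11. Endothelial-like cluster 24, led by Plvap and Gpihbp1, had 210.5 CPM pooled over the libraries. After thinning, 25.4%, 17.0%, 27.3% and 16.3% of the VSMC-like cells held an Ackr3 UMI (62.2%, 36.4%, 57.3% and 40.7% unthinned, medians 6850, 3757, 5680 and 5453 UMIs), against 0.213% to 0.485% of oligodendrocyte-like cells. Pericyte-like cells had 412, 272, 477 and 353 CPM, lowest at day 1 and highest at day 3, and 362, 263, 475 and 338 CPM with up to 6000 genes.

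In endothelial-like cells Ackr3 was below sham in all 3 tMCAO libraries. The levels were 91.8 CPM in sham, 44.4 at day 1, 59.3 at day 3 and 63.4 at day 7, with ratios of 0.484 [0.441 to 0.531], 0.646 [0.593 to 0.704] and 0.691 [0.640 to 0.746], and with up to 6000 genes per cell the day 1 ratio was 0.427. The gene was lower than in sham in 9 of 10 clusters at days 1 and 7 and in 8 of 10 at day 3. Cxcl12 and its scavenger were therefore both at their lowest at day 1 in these cells, whereas at day 7 Cxcl12 was above and Ackr3 below sham. Cxcr4, the signalling receptor, was near the floor there with 2.29, 4.87, 2.73 and 2.0 CPM.

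**Figure D4:**
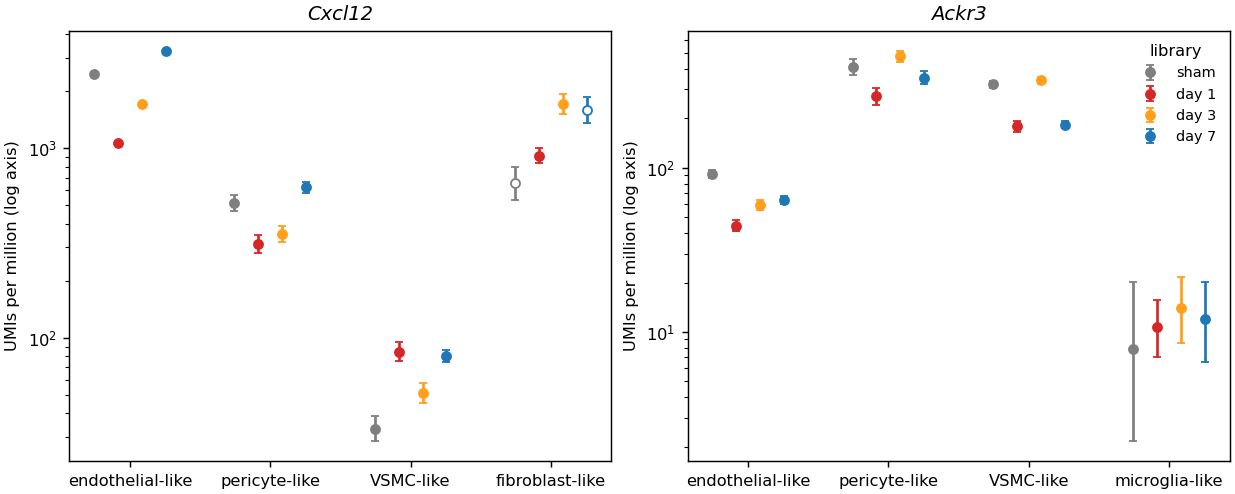
Cxcl12 (left) and Ackr3 (right) in CPM on log axes, by cell class (x) and library (colour), with exact 95% Poisson intervals and open points for classes under 50 cells. Day 1 is lowest for both genes in endothelial-like and pericyte-like cells, and Ackr3 in VSMC-like cells lies at 179 and 183 CPM at days 1 and 7 against 322 and 341 in sham and at day 3.

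Cxcl1 and Cxcl2, the neutrophil-attracting pair, were both higher in endothelial-like cells at day 1 and day 3 and back at the sham level at day 7. Cxcl1 was at 37.6 CPM in sham, 80.9 at day 1, 78.8 at day 3 and 38.4 at day 7, with ratios of 2.15 [1.94 to 2.38], 2.09 [1.89 to 2.32] and 1.02 [0.914 to 1.14]. Cxcl2 was at 15.5, 81.2, 35.8 and 15.0 CPM, with ratios of 5.23 [4.54 to 6.04], 2.30 [1.97 to 2.70] and 0.965 [0.811 to 1.15]. The 2 genes differed at day 3, when Cxcl1 kept its day 1 level and Cxcl2 was lower than at day 1. Few cells carried them. After thinning, 1.72%, 3.68%, 2.43% and 2.01% of endothelial-like cells held a Cxcl1 UMI (3.85%, 6.57%, 4.74% and 3.57% unthinned), against 0% in sham and at day 3, 0.128% at day 1 and 0.0808% at day 7 in oligodendrocyte-like cells, where 0 of 759 sham cells allows a share of up to 0.395%.

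Cluster 13 held 4.28% of the endothelial-like cells but 56.2% of their Cxcl1 and 65.5% of their Cxcl2 UMIs. It had 141, 312, 175 and 297 cells in sham and at days 1, 3 and 7, and its leading genes include Cxcl1 itself with Ptgs2 (cyclooxygenase-2), Icam1, Sele and Selp, the adhesion molecules for leukocytes. Within it Cxcl1 was at 312, 439, 656 and 286 CPM and Cxcl2 at 167, 480, 356 and 140 CPM. Cxcl1 was higher than in sham in 9 of 10 endothelial-like clusters at day 1 and 8 of 10 at day 3, and Cxcl2 in 10 of 10 and 8 of 10. In cluster 10, the other cluster led by Ackr1 and Selp, Cxcl1 was at 15.7, 52.9, 101 and 50.8 CPM.

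The upper limit on genes per cell set the size of this difference. Only 22.5% of the sham Cxcl1 UMIs and 34.0% of those of Cxcl2 lay in kept cells, against 40.1% and 51.8% at day 1. The 1057 sham endothelial-like cells that a limit of 6000 genes adds had 155 CPM of Cxcl1 and 121 CPM of Cxcl2. With that limit the levels in endothelial-like cells were 96.1, 139, 161 and 86.9 CPM for Cxcl1 and 68.2, 139, 121 and 32.5 CPM for Cxcl2, with day 1 ratios of 1.45 and 2.04. Cxcl1 at day 1 stayed past 2-fold under 5 of 11 other settings, and Cxcl2 under 10 of 11. The direction at days 1 and 3 was the same with both limits, whereas Cxcl2 at day 7 was below sham with the higher limit (ratio 0.477).

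**Figure D5:**
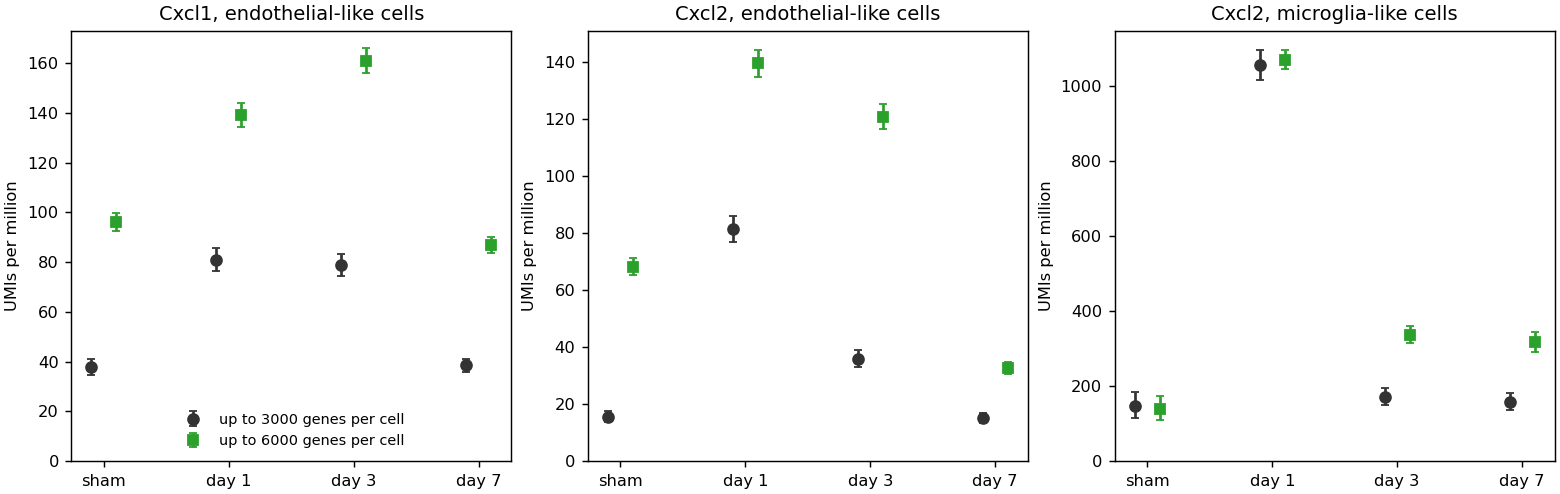
Cxcl1 and Cxcl2 in endothelial-like cells and Cxcl2 in microglia-like cells (CPM, y) by library (x), with circles for cells of up to 3000 genes, squares for up to 6000 genes, and exact 95% Poisson intervals. The endothelial-like sham level of Cxcl1 is 37.6 with the lower and 96.1 CPM with the higher limit, and Cxcl2 in microglia-like cells is 170.3 and 336 CPM at day 3 and 158 and 316 CPM at day 7, but 146 and 138 CPM in sham.

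Mural and stromal cells carried Cxcl1 as well. VSMC-like cells had 23.6, 79.9, 33.1 and 30.7 CPM, with a day 1 ratio of 3.39 [2.73 to 4.23] that stayed past 2-fold under 11 of 11 other settings. Fibroblast-like cells had 115 CPM in sham (17 UMIs in 32 cells), 450 at day 1, 13 at day 3 (2 UMIs) and 377 at day 7, and pericyte-like cells had 53.6, 89.2, 5.29 and 35.6 CPM. Day 1 was highest in all 3 classes. At the limit of 6000 genes, fibroblast-like cells had 180.3, 687, 325 and 435 CPM, so that day 3 turned from below to above sham. Unnamed cluster 26, led by Ccl19, Ccl11 and Col3a1, had 197, 459, 274 and 445 CPM. Cxcl2 in VSMC-like cells was at 0.974 CPM in sham (5 UMIs), 30.5 at day 1 (108 UMIs), 3.96 at day 3 and 5.08 at day 7, but 1 day 1 cell held 55 of the 108 UMIs and the level without that cell was 15.0 CPM. Its day 3 level was 35.9 CPM with up to 6000 genes.

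In myeloid cells Cxcl2 was the more abundant of the pair. Neutrophil-like cells had 395 UMIs in 15 sham cells (5951 CPM), 9279 CPM at day 1, 3597 at day 3, and 540 UMIs in 26 day 7 cells (5734 CPM). Border macrophage-like cells had 2278, 4022, 3099 and 2199 CPM, with ratios of 1.77 [1.63 to 1.92], 1.36 [1.23 to 1.5] and 0.965 [0.879 to 1.06]. Day 1 was highest in both classes. Border macrophage-like cells of up to 6000 genes had 2133, 3432, 1844 and 1886 CPM, and day 3 turned from above to below sham (ratio 0.864 [0.795 to 0.940]). Microglia-like cells had 146 CPM in sham, 1054 at day 1, 170.3 at day 3 and 158 at day 7, with a day 1 ratio of 7.20 [5.72 to 9.20] and ratios of 1.16 [0.894 to 1.53] and 1.08 [0.819 to 1.43] later. The day 1 value stood above the other 3 libraries. With up to 6000 genes per cell the levels were 138, 1068, 336 and 316 CPM, so that days 3 and 7 were also above sham, with ratios of 2.43 [1.91 to 3.13] and 2.28 [1.79 to 2.95].

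More cells carried the gene at day 1. After thinning, 7.69%, 23.6%, 5.28% and 7.61% of the microglia-like cells held a Cxcl2 UMI (12.6%, 27.7%, 5.14% and 9.63% unthinned, medians 1832, 2629, 2290.5 and 1995 UMIs). In border macrophage-like cells these shares were 34.5%, 63.3%, 30.5% and 31.1%, and in oligodendrocyte-like cells 0%, 0.512%, 0.119% and 0.162%. Cxcl1 was sparse in microglia-like cells, with 2, 29, 1 and 16 UMIs. Border macrophage-like cells had 245, 256, 173 and 108 CPM of Cxcl1, with ratios of 1.04 [0.802 to 1.37], 0.707 [0.487 to 1.02] and 0.440 [0.307 to 0.627].

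The microglia-like class held a shallow cluster, named from marker levels with 0 markers of the class among its leading genes (4 in cluster 14). The leading genes of this shallow cluster were Elane, Prtn3, Ly86, Aif1, Birc5, C1qb, C1qc, Tyrobp, C1qa and Trem2. Cluster 16 (738 cells, median 1048.5 UMIs) had 12741, 6071, 11085 and 13701 CPM of the endothelial markers, against 853, 678, 964 and 1300 in cluster 14, and 1751, 459, 1037 and 2642 CPM of Cxcl12, against 141, 41.8, 68.5 and 195. In the class as a whole Cxcl12 was at 437, 149.5, 247 and 642 CPM, the order of the endothelial-like cells. Without cluster 16, the microglia-like cells had 165, 1370, 205 and 188 CPM of Cxcl2, a day 1 ratio of 8.31.

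Of the interferon-inducible ligands, Cxcl10 was lower in microglia-like cells at days 3 and 7 than in sham and at day 1. The 4 levels were 407, 367, 88.6 and 88.3 CPM, with ratios of 0.902 [0.775 to 1.05], 0.218 [0.173 to 0.273] and 0.217 [0.169 to 0.276]. With up to 6000 genes the day 1 level turned to above sham (473 against 385 CPM), and days 3 and 7 stayed below it. In sham 1 cell held 96 of 206 UMIs, and without it the sham level was 221 CPM. The shares of cells went against the level for sham and day 1, so that no order of these libraries is read from them, with 5.98%, 14.3%, 2.97% and 3.81% of thinned cells holding a Cxcl10 UMI (10.7%, 21.1%, 4.67% and 6.91% unthinned) against at most 0.0853% of oligodendrocyte-like cells. Endothelial-like cells had 12.6, 8.96, 16.1 and 8.32 CPM (23.3, 10.4, 20.5 and 10.4 with up to 6000 genes, day 3 then below sham), and within them cluster 9, with the arterial marker Sema3g among its leading genes, had 0, 50.04, 97.6 and 41.5 CPM. These values rest on 172 UMIs over the libraries. Single endothelial-like cells held up to 25, 50 and 54 Cxcl10 UMIs at days 1, 3 and 7, so that few cells may carry them. Cxcl9 was found in single cells: 2 border macrophage-like sham cells held 58 UMIs, 55 of them in 1 cell, 3 day 7 cells held 224 UMIs, 136 of them in 1 cell, and days 1 and 3 had 0 in 137 and 64 cells.

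In endothelial-like and microglia-like cells, interferon response genes (Ifit1, Ifit3, Isg15, Irf7, Rsad2 and Rtp4) were mostly lower after tMCAO than in sham. In endothelial-like cells 6 of 6 were lower by at least 2-fold at day 1, 5 of 6 at day 3 and 6 of 6 at day 7 (1.58%, 0.689% and 0.549% of all genes), with medians on the log2 scale of -2.79, -1.65 and -1.90 against -0.093, 0.0030 and 0.076 over all genes tested. In microglia-like cells 6, 6 and 5 of 6 were lower (8.64%, 2.62% and 1.69% of all genes), with medians of -2.28, -1.78 and -1.66. VSMC-like cells had 1, 2 and 2 of 5 lower (0.698%, 0.249% and 0.137%), with medians of -0.86, -0.92 and -0.94. Isg15, an antiviral ubiquitin-like protein, was at 2017, 284, 589 and 353 CPM in endothelial-like cells and at 372, 118, 97.0 and 85.7 CPM in microglia-like cells. The sham library thus stood above all 3 tMCAO libraries in Isg15 in both classes, and the part of these genes in the Cxcl10 levels was not tested.

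Cxcl16, the transmembrane ligand of CXCR6, was higher in microglia-like cells at day 1. The levels were 89.0, 204, 110.3 and 105 CPM in sham and at days 1, 3 and 7, with ratios of 2.30 [1.69 to 3.19], 1.24 [0.885 to 1.77] and 1.18 [0.829 to 1.69]. Without cluster 16 the day 1 ratio was 1.93. Border macrophage-like cells had 88.0, 181, 153 and 237 CPM, with ratios of 2.06 [1.37 to 3.20], 1.74 [1.06 to 2.89] and 2.69 [1.77 to 4.21], all 3 tMCAO libraries above sham. After thinning, 7.69%, 13.3%, 6.60% and 6.92% of microglia-like cells held a Cxcl16 UMI (15.7%, 36.5%, 24.1% and 19.3% unthinned), against at most 0.239% of oligodendrocyte-like cells. In endothelial-like cells the gene was at 2.76, 6.32, 8.94 and 3.46 CPM.

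The levels of Cx3cl1, the membrane-bound fractalkine, in endothelial-like cells were 51.4, 48.0, 54.8 and 55.3 CPM, with ratios of 0.934 [0.842 to 1.03], 1.06 [0.964 to 1.18] and 1.08 [0.981 to 1.18], whose intervals all include 1. With up to 6000 genes per cell they did not at day 1 (0.757 [0.698 to 0.821]) and day 7 (1.15 [1.07 to 1.23]). After thinning, 4.92%, 4.23%, 5.18% and 5.54% of these cells held a UMI (15.3%, 10.8%, 13.1% and 12.4% unthinned), against 0.132%, 0.299%, 0% and 0.0808% of oligodendrocyte-like cells. Cluster 24, led by Plvap and Gpihbp1, had 142 CPM and the arterial cluster 6 had 104 CPM pooled over the libraries. Neuron-like cells, the second source with 14.3% of the UMIs, had 183 CPM in sham (93 UMIs in 147 cells), 283 at day 1, 53.3 at day 3 and 51.7 at day 7 (12 UMIs in 83 cells). Nearly all of these UMIs were in cluster 18, with Syt1, Slc17a7 and Grin1 among its leading genes, which held 97, 388, 40 and 18 of the cells and had 302, 467, 131 and 261 CPM. Cluster 20, with Dcx and Sox11, held 50, 263, 58 and 65 cells and 1, 8, 0 and 1 UMIs, so that the level of the class moves with its make-up. These levels were, with up to 6000 genes, 295, 350.5, 68.9 and 136 CPM, and neuron-like cells held 65.5% of the day 1 Cx3cl1 UMIs of the library against 35.6% with the lower limit.

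The receptor of fractalkine, Cx3cr1, had 91.9% of its UMIs in microglia-like cells. It was at 1746, 1129, 1579 and 2668 CPM there, with ratios of 0.647 [0.599 to 0.698], 0.904 [0.836 to 0.979] and 1.53 [1.42 to 1.65]. Border macrophage-like cells had 75.4, 103, 173 and 305 CPM of Cx3cr1, above sham in all 3 tMCAO libraries. The part of the make-up of this class in these levels was not tested.

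Cxcr2, the receptor of CXCL1 and CXCL2, was seen mostly in neutrophil-like cells, which held from 66% (33 of 50 UMIs at day 1) to 94.1% of it by library. They held 47, 33, 128 and 59 UMIs in 15, 63, 57 and 26 cells, or 708, 241, 367 and 626 CPM. The level was lowest at day 1, when these cells were shallow (median 1467 UMIs against 5531 at day 3). After thinning, 28.6% of day 1 and 32.7% of day 3 neutrophil-like cells held a Cxcr2 UMI (33.3% and 84.2% unthinned), whose intervals [17.3 to 42.2] and [20.7 to 46.7] overlap. Endothelial-like cells held 1, 5, 3 and 7 Cxcr2 UMIs, at most 0.341 CPM.

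Cxcr4 differed between leukocyte classes. Neutrophil-like cells had 226 CPM in sham, 578 at day 1, 112 at day 3 and 223 at day 7 (15, 79, 39 and 21 UMIs), and after thinning 46.4% [33.0 to 60.3] of day 1 against 5.45% [1.14 to 15.1] of day 3 cells held a UMI (63.5% and 47.4% unthinned). Day 1 neutrophil-like cells thus had a higher Cxcr4 level than those of day 3. Border macrophage-like cells had 66.0, 78.5, 112 and 167 CPM, with a day 7 ratio of 2.52 [1.55 to 4.28]. T or NK-like cells had 162 CPM at day 3 and 187 at day 7, from 51 and 108 cells, and 9 and 4 UMIs in the 26 sham and 37 day 1 cells. Ependymal-like cells had 63.6 CPM in sham (6 UMIs in 27 cells), 121 at day 1, 47.5 at day 3 and 136 at day 7, but 72.7, 141, 94.5 and 121 CPM with up to 6000 genes, so that day 3 turned from below to above sham. Clustered without integration, the ependymal-like cluster held 25, 170, 25 and 53 cells, against 27, 168, 113 and 57 with it, so that the make-up of this class at day 3 depends on the integration. Microglia-like cells had 1, 17, 9 and 20 UMIs, or 1.98, 6.76, 6.28 and 17.1 CPM.

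Counted by a fixed size of difference, the members moved mostly at day 1. A gene counted as past 2-fold when log2 of (CPM + 5) differed by at least 1 from sham, among genes with a mean of at least 10 CPM. In endothelial-like cells 6 members passed this filter. At day 1, 2 were higher (Cxcl1 and Cxcl2, against 0.982% of all 8558 genes) and 1 lower (Cxcl12, against 1.58%), with Cxcl1 at 1.01 just inside and Ackr3 at -0.97 just outside the limit. No member of the 6 was past it at day 3 (1.48% of all genes higher, 0.689% lower) or day 7 (0.573% and 0.549%), and Cxcl2 at 0.99 and Cxcl1 at 0.97 were just outside it at day 3.

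In VSMC-like cells 4 members were counted. At day 1, 3 were higher (Cxcl1, Cxcl2 and Cxcl12, against 2.11% of 8020 genes) and 0 lower (0.698%). Cxcl2 was at 0.974, 30.5, 3.96 and 5.08 CPM in sham and at days 1, 3 and 7. Only its day 1 level was above the limit of the filter on low levels. Cxcl2 was thus counted only through the library in which it was higher, and nothing about the number of higher members is read from it. The Cxcl2 call was lost under 3 and the Cxcl12 call under 5 of 11 other settings. Without called doublets and with the mean of per-cell CPM, 3 members passed the filter on low levels. Without the 1 cell with the most UMIs, Cxcl2 was still at 15.0 CPM at day 1 against 0.78 in sham, so that this loss was not one of the fold. At day 3, 0 were past the limit (0.312% higher, 0.249% lower), and at day 7 Cxcl12 was higher (1.33%) and 0 were lower (0.137%). The day 7 Cxcl12 difference was lost under 4 of 11 other settings, and with up to 6000 genes or with cells called one by one by markers Cxcl2 was past the limit in its place. In microglia-like cells 5 members were counted, with Cxcl2 and Cxcl16 higher at day 1 (7.32% of 8164 genes) and Cxcl12 lower (8.64%). Of 12 other settings, the Cxcl12 call was lost under 2 (clustering without integration and the mean of per-cell CPM) and the Cxcl16 call under 1 (without cluster 16). Cxcl10 was the single member lower at day 3 (2.62%) and day 7 (1.69%), and 0 were higher (4.26% and 4.62%). The background was thus several times larger in microglia-like than in endothelial-like cells, and the median of all genes in microglia-like cells at day 1 was -0.14 on the log2 scale.

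Among the other genes of the pathway was the atypical receptor Ackr1, which binds inflammatory chemokines on venous endothelium. It had 90.1% of its UMIs in endothelial-like cells, at 12.7 CPM in sham, 40.2 at day 1, 715 at day 3 and 29.4 at day 7, so that day 3 was 56.3 [48.7 to 65.3] times sham. Cluster 10, which Ackr1 leads, held 183 of 3978 sham and 537 of 4831 day 3 endothelial-like cells, and the part of this change in cells was not tested. It was the 1 of 2 counted other receptors past 2-fold in endothelial-like cells at days 1 and 3, when 0.982% and 1.48% of all genes were higher. Of 9 counted genes of ligand processing and signalling, 1 was past 2-fold, Cd74 (the MHC class II invariant chain and receptor of Mif) at day 3, with 6.45, 1.38, 58.2 and 3.07 CPM. Cd74 was above 10 CPM at day 3 only, so it was counted only through the library in which it was higher, and nothing about the list is read from it. Adam10, the sheddase of CX3CL1 and CXCL16, was at 161, 207, 169.9 and 221 CPM and not past 2-fold on any day. No other ligand passed the filter on low levels there.

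NF-kB response genes seldom passed 2-fold, although their median lay above that of all genes in the vessel cells. In endothelial-like cells 0 of 6 were past 2-fold at day 1, 1 (Icam1, higher) at day 3 and 0 at day 7 (0.982%, 1.48% and 0.573% of all genes higher), with medians of 0.46, 0.51 and 0.36 on the log2 scale against -0.093, 0.0030 and 0.076 over all genes. Of 8 immediate-early genes in these cells Nr4a1 was higher at day 1 and Fosb and Egr1 at day 7. In VSMC-like cells 1 of 5 NF-kB response genes was higher at day 1 (Tnfaip3, at 6.04, 23.4, 8.51 and 12.8 CPM) and 1 at day 7 (Nfkbiz), with medians of 0.56, 0.29 and 0.69, and Fosb and Egr1 were higher at day 7 (2.11%, 0.312% and 1.33% of all genes higher on the 3 days). Microglia-like cells had 6 of 8 immediate-early genes lower at day 1, among them Fos with 6566, 1299, 3202 and 5166 CPM, 1 higher (Nr4a1), and 2 of 6 NF-kB response genes lower (Nfkbia and Relb), beside 8.64% of all genes lower and 7.32% higher. At day 3 Fos, Nfkbia and Tnfaip3 were lower (2.62% of all genes). The NF-kB medians in these cells were -0.38, -0.71 and 0.082 against -0.14, 0.022 and 0.088 over all genes. Cxcl2 was higher at day 1 in the same cells. The part of warm papain digestion, which all 4 libraries shared, in these levels was not tested.

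In microglia-like cells Mif, the macrophage migration inhibitory factor that can act on CXCR2 and CXCR4, was the 1 of 11 counted genes of ligand processing and signalling that was higher at days 1 and 3, beside 7.32% and 4.26% of all genes, with 129, 414, 356 and 251 CPM. This count is near the background. Rgs2 was lower at day 1 and Grk3 at day 3. Pf4 (CXCL4), the single other ligand counted, was lower at days 3 and 7, but 93.1% of its UMIs were in border macrophage-like cells, where it was at 4189, 5492, 1950.4 and 937 CPM. The partner receptors of the other ligands lay in T or NK-like cells, with 97.0% of the Cxcr6 and 78.9% of the Cxcr3 UMIs.

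Each member was compared with 10154 genes over 36 class-by-library points (9 classes of at least 50 cells in every library). By Pearson's r of log2 levels, the 3 genes most like Cxcl12 were Flt1 (0.975), Adgrf5 (0.953) and Ptprb (0.952). Ackr3 was most like Gjc1 (0.938), Plekhh3 (0.937) and Phldb2 (0.935), and Cx3cl1 like Syt7 (0.914), C2cd2l (0.897) and Samd12 (0.885). Cxcl2 was most like Ms4a6c (0.945), Ptpn18 (0.943) and Lyz2 (0.942), Cxcl10 like Tnf (0.959), Cd83 (0.952) and Laptm5 (0.946), and Cxcl16 like Tlr2 (0.983), Ptpn18 (0.978) and Hcls1 (0.974). Cxcr4 was most like Cytip (0.901), Ccr2 (0.876) and Mgl2 (0.872), and Cxcl1, spread over more classes, like Anxa2 (0.856), Ifitm2 (0.836) and Tubb6 (0.835). Cxcl9 was like Ly6c2 (0.812), Cd209g (0.750) and Plac8 (0.734), from few cells, and Cxcr2 had no gene above 0.560, at a mean of 0.251 CPM, as the neutrophil-like class was too small to be among the 9. The points share libraries and depths, so these values are descriptions.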

How the data were processed

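For each of 4 libraries the authors deposited a matrix of UMI counts (genes by cells), whole numbers without normalization, which the file headers attribute to Cell Ranger 4.0.0. The submitters' processing notes name Cell Ranger 3.0.1, Seurat 4.1.2 and the human build GRCh38, but 99.6% of the 31053 gene identifiers matched the mouse GENCODE vM21 annotation of GRCm38, which was used for positions.

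CPM, ratios, log2 differences and percents were computed here from the deposited counts. The cell filter (200 to 3000 genes, up to 10% mitochondrial UMIs) was that of the methods, and it left fewer cells than the study states. Libraries were integrated (canonical correlation, 2000 variable genes, 30 dimensions) and clustered at resolution 1 with Seurat 5.3.0 in R 4.3.3, and clusters were named from marker genes. Doublets were kept. Scrublet (scanpy 1.11.5) with automatic thresholds called 20 sham, 582 day 1, 4 day 3 and 2 day 7 cells, which was taken as not having worked, so the alternative without doublets removed a fixed 9.39% to 14.3% of the cells.

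Under this filter, ratios to sham were computed in classes of at least 50 cells in both libraries, and smaller classes are given by their levels alone. Log2 values were taken after adding 5 CPM. Intervals were exact at 95%, namely Poisson for sums, conditional for ratios and Clopper-Pearson for shares, with a floor of 3 counts for 0. Shares of cells were computed after drawing 1000 UMIs per cell without replacement. The genes named are the members, the genes of fixed pathway lists that were past 2-fold or are partners of a member, and the 3 genes most like each member. The members and lists were chosen with earlier results of these data known. Other settings were tried for the cell filter, clustering, class calls, doublets, pseudocount, filter on low levels, scaling and thinning. The calculations were tested on simulated data. Python 3.11.15, numpy 2.4.6, scipy 1.17.1, pandas 2.3.3 and matplotlib 3.10.9 were used.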

Additional observations from a re-analysis of the deposited data

Results flagged for a closer look

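Cxcl12 differed in opposite directions in 2 cell classes of the vessel wall under the settings of the report. At day 1 the ratio to sham was 0.437 in endothelial-like and 2.54 in VSMC-like cells, and with 1 library per group the difference between these ratios was not tested. The VSMC-like difference was lost under 5 of 11 other settings and turned to lower under 2 of them (up to 6000 genes per cell, and without called doublets), and per 100 endothelial marker UMIs both classes were lowest at day 1.

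A large part of the sham Cxcl1 and Cxcl2 UMIs lay in deposited cells that the comparisons do not use. Outside the cell filter there were 3045 Cxcl1 UMIs and 2834 Cxcl2 UMIs in the sham library. The tMCAO libraries held such UMIs as well, with 3578, 3309 and 2754 for Cxcl1 at days 1, 3 and 7. For Cxcl2 there were 8380, 4001 and 1555.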

How the results depend on the processing

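The number of members past 2-fold was recomputed under other settings, 2 of which (microglia-like cells without cluster 16, and each class without the 1 cell with the most UMIs) were chosen after seeing the data. The reported counts at days 1, 3 and 7 were 3, 0 and 0 in endothelial-like, 3, 0 and 1 in VSMC-like and 3, 1 and 1 in microglia-like cells. The VSMC-like count at day 1 includes Cxcl2, which passed the filter on low levels only through its day 1 level. Counts that moved by over 1.5 times are given by setting, and the other counts at day 1 lay between 2 and 4. In endothelial-like cells the count was 1 at day 1 with the mean of per-cell CPM, 2 at day 3 with 1 CPM added and 1 at day 3 without the cell with the most UMIs. In VSMC-like cells it was 1 at day 3 with up to 6000 genes per cell, 1 and 2 at days 3 and 7 with a 5% mitochondrial limit, 1 and 0 at days 1 and 7 without called doublets, 1 and 2 at days 3 and 7 with 1 CPM added, and 0 at day 7 with 20 CPM added. In microglia-like cells it was 2 at day 7 without integration and with the mean of per-cell CPM, 2 and 2 at days 3 and 7 with cells called one by one by markers, 3 and 2 with up to 6000 genes, 2 at day 3 without called doublets, and 3 at day 7 with no filter on the level. The background moved as well: the genes past 2-fold in VSMC-like cells at days 3 and 7 rose from 45 and 118 to 367 and 432 with the 5% mitochondrial limit and to 90 and 278 with 1 CPM added. With up to 6000 genes Cxcl2 in microglia-like cells was past 2-fold at days 3 and 7 too, and in VSMC-like cells at day 7 Cxcl2 took the place of Cxcl12. The cause of these moves was not tested. Cxcl12 in VSMC-like cells at day 1 turned from higher to lower with up to 6000 genes per cell (-0.54 on the log2 scale) and without called doublets (-0.048). Cxcl2 and Cxcl10 in microglia-like cells stayed past 2-fold at day 1, and at days 3 and 7, under 12 of 12 settings, Cxcl1 in VSMC-like cells at day 1 under 11 of 11, and Cxcl12 in endothelial-like cells at day 1 under 10 of 11. No paired analysis was possible because each group has 1 library. The small classes rest on few cells, with 15 sham and 26 day 7 neutrophil-like cells.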

Other observations

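Other chemokine genes had classes of their own. Cxcl14 had 54.0% of its UMIs in astrocyte-like cells, at 599, 604, 1012 and 652 CPM in sham and at days 1, 3 and 7, and Xcl1, a chemokine of cytotoxic lymphocytes, had 97.6% in T or NK-like cells. Cxcl3, another CXCR2 ligand, was in border macrophage-like (57.7%) and neutrophil-like cells (36.6%), at 31.4, 176, 13.6 and 1.89 CPM in the former, which was highest at day 1 as for Cxcl2.

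The day 3 library had endothelial markers in cells grouped with the ventricle lining, at 8646 CPM in ependymal-like and 7329 CPM in choroid plexus-like cells, beside Cxcl1 at 113 and 44.1 CPM and Cxcl2 at 206 and 70.2 CPM. With up to 6000 genes per cell these fell to 52.0 and 18.2 CPM for Cxcl1 and to 86.0 and 20.5 CPM for Cxcl2. Clustered without integration, 270 day 3 cells and 0, 3 and 3 sham, day 1 and day 7 cells formed a cluster led by Timp1 beside a choroid plexus-like cluster of 127, 260, 47 and 208 cells, so that the make-up of these classes at day 3 depends on the integration.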
